A study of Homo sapiens with 10 samples.

Results

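The barcodes described here were cell barcodes of intermediate depth from HCT-116 cells, a human colon cancer line, after doxorubicin (DOX). A cell barcode marks the RNA caught in 1 droplet, and its depth is the number of unique molecular identifiers (UMIs), which count captured RNA molecules. Intermediate barcodes were selected on 2 measured values, the UMI total and the mitochondrial share, and were those of the 2 DOX libraries with 2000 to <10000 UMIs and under 8% of UMIs from genes of the mitochondrial genome. They numbered 892 in DOX library 1 and 560 in DOX library 2, or 1452 of the 16000 DOX barcodes and of the 23229 barcodes in all 4 single-cell libraries. The deep cells they were compared with had 20000 to <150000 UMIs, fewer than 12000 genes and the same limit on the mitochondrial share, and numbered 1259 and 962.

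DOX cells had received 200 nM DOX for 24 h, which was then washed out, and were collected 6 days later. Untreated HCT-116 cells gave the other 2 single-cell libraries, and the 3 untreated and 3 DOX bulk samples were not analysed here. All cells were of 1 cell line, and the labels did not say that the 2 libraries of a treatment came from separate cultures, so the spread between them may be technical. The study's question was which cells stop dividing and which continue to cycle after DOX, and where interferon-stimulated genes are expressed.

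DOX blocks topoisomerase II and breaks DNA. The breaks activate the transcription factor p53, which drives cell cycle inhibitors such as p21 and can lead to senescence, a lasting arrest in which cells often grow large and carry several genomes. Interferon-stimulated genes are driven by ISGF3, a complex that includes STAT2 and IRF9. In its unphosphorylated form (U-ISGF3) the complex keeps part of these genes active long after the signal. In droplet data a barcode may hold an intact cell, a damaged cell, a nucleus, a fragment of either or free RNA. Mature mRNA of ribosomal proteins is abundant in cytoplasm, whereas MALAT1 and NEAT1 stay in the nucleus, so their shares are often used to describe what a droplet holds.

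The 4 libraries held 2528 to 8000 barcodes each, and both DOX libraries had been set to 8000 barcodes by the authors. The paper gives this setting for the DOX samples only. Where DOX and untreated barcodes are compared below, treatment and the way barcodes were admitted cannot be told apart. The DOX libraries shared 24 barcode sequences, none of which was intermediate in both. The epithelial keratin genes KRT8, KRT18 and KRT19 and EPCAM were high in the intermediate DOX barcodes. The 12 epithelial markers together had 12242 and 11332 CPM (UMIs scaled to a sum of 1000000 per library and group), against 6493 and 5959 in deep cells. Most of this sum came from KRT8, KRT18 and KRT19, at 3956, 4107 and 3170 CPM in DOX library 1. CDH1 went the other way, with 45.53 and 32.15 CPM against 50.98 and 45.91 in deep cells. So did VIL1, near the floor, with 1.177 and 1.128 against 1.256 and 1.216. CEACAM5 and CDX1, defining markers of differentiated colon epithelium, had 0 UMIs in the intermediate barcodes and 1 UMI in the deep cells of each library. Markers of blood, endothelial, connective tissue and liver cells summed to 24 and 10 UMIs over 10 genes (9.42 and 5.64 CPM, against 6.30 and 6.44 in deep cells), and ALB, CD79A, CD14 and COL3A1 were at 0.

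Several values follow from how the barcodes were chosen and are given as a description. The median depth was 2323.5 and 2302.5 UMIs, against 71511 and 80315.5 in deep cells, and the intermediate barcodes held 2547963 and 1772993 UMIs in all. The median number of genes was 1077 and 1091, against 8702 and 9007.5. The median mitochondrial share was 0.847% and 0.787%, against 5.24% and 5.58%, so that the intermediate barcodes lay far below the limit of 8%. The depth range had no gap at its lower edge, where the nearest barcodes on either side of 2000 UMIs held 1999 and 2000 UMIs in DOX library 1 and 1998 and 2000 in DOX library 2. At the upper edge they held 9837 and 10019 UMIs, and 9990 and 10232 UMIs. The nearest deep barcodes started at 20374 and 20533 UMIs, and the nearest mitochondrial shares on either side of the limit were 7.82% and 8.03%, and 7.98% and 8.01%. Most intermediate barcodes were near the lower edge, with 826 and 486 under 5000 UMIs and 66 and 74 above. A further 107 and 138 barcodes of the same depth exceeded the mitochondrial limit.

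Ribosomal protein genes set the intermediate DOX barcodes apart from both deep cells and untreated barcodes of like depth, but their median share did not do so from shallow DOX barcodes. Their median share of a barcode's UMIs was 31.7% and 31.1% in the intermediate DOX barcodes, against 21.0% and 20.8% in deep DOX cells. In the shallow DOX barcodes, which had fewer UMIs than the intermediate ones, the median was 31.1% and 32.2%, lower in DOX library 1 and higher in DOX library 2. In the 205 and 72 intermediate untreated barcodes the median was 17.8% and 15.1%. These were somewhat deeper, with medians of 5173 and 3460.5 UMIs. The 2 DOX libraries agreed closely, and both exceeded both untreated libraries.

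The intermediate DOX barcodes were not uniform. In most of them, 823 and 514 barcodes, the median ribosomal share was 31.9% and 31.4% and the sum of MALAT1, NEAT1 and KCNQ1OT1 had a median of 0.175% and 0.195% of UMIs. A smaller set of 22 and 18 barcodes had a ribosomal share under 15% (25 of 205 and 34 of 72 in the untreated libraries), and in the DOX barcodes of this set the nuclear RNAs had a median of 2.97% and 6.35%. The remaining 47 and 28 barcodes drew an excess of their UMIs from single chromosomes, as described further on, and had a median ribosomal share of 11.2% and 13.4% but nuclear RNAs at a median of 0.0602% and 0.0854%. The limits of 15% and, for the chromosomes, 10 percentage points were chosen after seeing the data, so these kinds are a description.

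**Figure D1:**
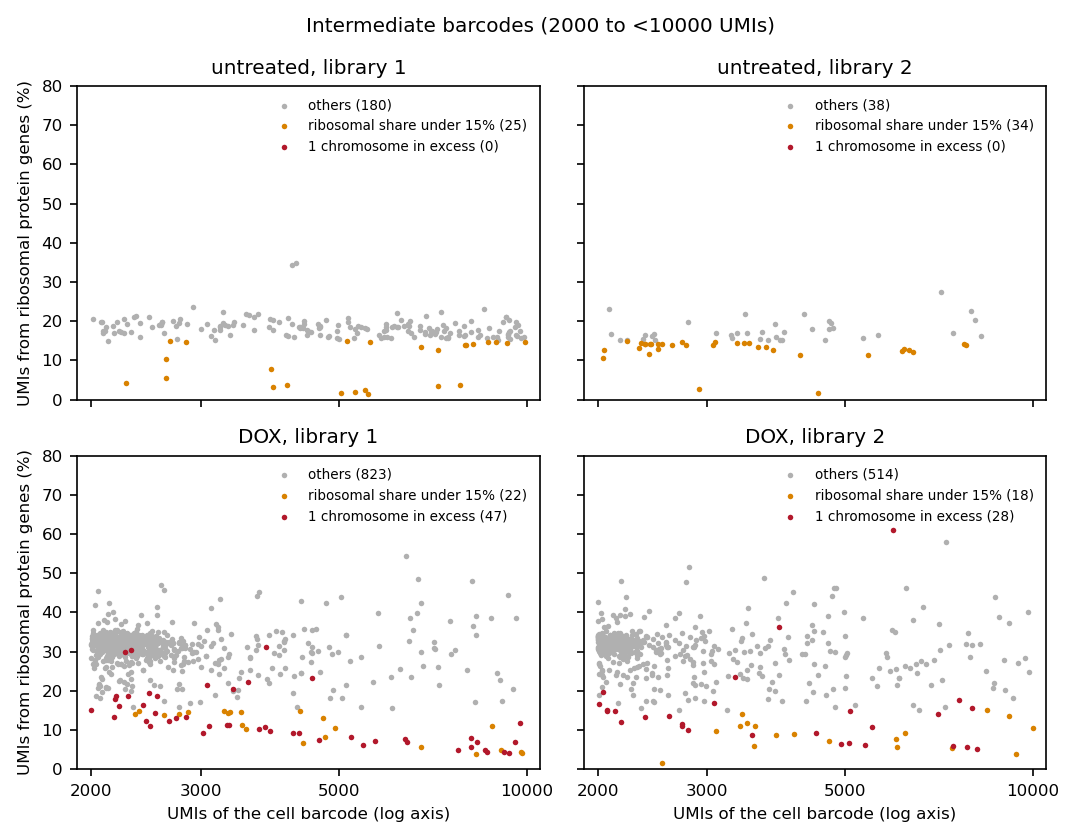
UMIs from ribosomal protein genes (%) against UMIs of the barcode (log axis) for each intermediate barcode in the 4 single-cell libraries, 1 point a barcode, with the number of each kind in the legend. Most DOX barcodes form a band near the medians of 31.7% and 31.1%, the untreated barcodes lie near 17.8% and 15.1%, and the barcodes with at least 1 chromosome in excess (red) appear only under DOX among these intermediate barcodes, mostly at low ribosomal shares.

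To compare intermediate barcodes with deep cells, UMIs were summed per library and depth group and compared by edgeR's quasi-likelihood test. The library was a block in the fit because both groups came from the same 2 libraries. Of 18867 genes tested, 1244 were higher in the intermediate barcodes (6.59%) and 2043 were lower (10.8%) at an adjusted p under 0.05, and the median log2 difference was -0.05. Genes of the mitochondrial genome took no part because their share was used for the choice. With library totals alone, without TMM factors (edgeR's scaling between samples), the median shifted to -0.17 and the split became 921 higher and 2633 lower, so a difference near 0 has no firm sign. Levels below are CPM of the summed group, without a correction for gene length.

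Among the genes by which the study marked arrest and proliferation, those of the p53 response were higher in intermediate barcodes and most of those of division were lower. The study applied these markers, known from earlier work, to these same samples, so their directions are not independent evidence. CDKN1A, which encodes p21, had 389 and 339 CPM in the intermediate barcodes of DOX libraries 1 and 2, against 271 and 194 in deep cells, a log2 difference of 0.78 (SE 0.087, adjusted p = 0.00037). GDF15, a secreted stress factor, had 552 and 505 against 306 and 228, or 1.12 (SE 0.082, adjusted p = 3.7e-05). For both genes each intermediate sum exceeded each deep sum, though the share of all genes that did so is not given here.

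MKI67, whose product Ki-67 marks dividing cells, had 62.4 and 69.4 CPM against 179 and 197 in deep cells (log2 -1.39, SE 0.11, adjusted p = 4.8e-05). ANAPC1, a subunit of the anaphase-promoting complex, had 25.5 and 18.0 against 47.3 and 47.9 (-0.999, SE 0.20, adjusted p = 0.0075). BIRC5, encoding survivin, had 79.3 and 107 against 135 and 150 (-0.51, SE 0.11, adjusted p = 0.013). The groups did not overlap for any of these 3 genes, though the share of all genes without overlap is not given here. ANAPC1 did not pass without DOX library 2 (-0.77, adjusted p = 0.054) or with deep cells thinned to 2000 UMIs (-0.73, adjusted p = 0.079), and the BIRC5 difference no longer passed with the same thinning (-0.32, adjusted p = 0.16) or without DOX library 1 (-0.42, adjusted p = 0.23).

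LMNB1, encoding lamin B1 of the nuclear envelope, was lower in the intermediate barcodes but uneven between libraries, with 24.7 and 49.6 against 59.5 and 69.4 (log2 -0.74, SE 0.19, adjusted p = 0.030). A single barcode held 22.7% of the LMNB1 UMIs in DOX library 2, and without the barcodes with a chromosome in excess the difference was -0.94 (adjusted p = 2.7e-09). Without DOX library 1 it did not pass (-0.42, adjusted p = 0.38). CDC20, an activator of the anaphase-promoting complex, had 91.1 and 117 against 140 and 143 and did not pass (-0.34, adjusted p = 0.072). PCNA, the clamp of DNA polymerase delta and also a p53 target, went the other way from MKI67, with 193 and 197 against 152 and 155 (0.46, SE 0.091, adjusted p = 0.0070), but did not pass without DOX library 1 (adjusted p = 0.18) or DOX library 2 (adjusted p = 0.099). HSH2D, an adaptor protein gene that the study picked out partly by its level in these samples, had 10.6 and 19.7 against 31.7 and 32.3 (-1.02, SE 0.25, adjusted p = 0.020), and did not pass without DOX library 1 (-0.64, adjusted p = 0.37).

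The p53 targets as a list leaned to the same side as CDKN1A. Of 31 tested, 21 were higher and 0 lower, and the median log2 difference was 0.74, beside -0.05 over all genes and 6.59% of all genes called higher. BTG2, an antiproliferative gene, had 91.1 and 68.8 CPM against 35.3 and 25.2 (1.52, adjusted p = 0.00015). TP53I3, an oxidoreductase gene, had 77.3 and 75.6 against 33.2 and 26.8 (1.47, adjusted p = 0.00023). Also among the 21 were MDM2, which limits p53, the death genes BAX, BBC3 and FAS, and GADD45A. PMAIP1, encoding the death protein NOXA, was not in the list but had 277 and 344 against 136 and 118 (1.39, adjusted p = 0.00025).

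The secreted factors of the senescence-associated secretory phenotype had 4 higher and 1 lower of 20 tested (median 0.69), where 6.59% of all genes were higher and 10.8% lower. IGFBP6, an insulin-like growth factor binding protein, had 325 and 362 against 154 and 134 (1.37, adjusted p = 3.1e-05), and TIMP1, an inhibitor of matrix proteases, had 344 and 372 against 195 and 201 (0.97, adjusted p = 6.1e-05). The chemokine genes CXCL1 and IL8 were the other 2 called higher. EREG, an epidermal growth factor receptor ligand, was lower (259 and 285 against 457 and 457, -0.64, adjusted p = 0.00052).

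Cell cycle genes were more often lower than higher in the intermediate barcodes, against 10.8% lower and 6.59% higher over all genes. Of 40 S phase genes tested, 22 were lower and only PCNA was higher (median -0.65), and of 53 G2/M genes 31 were lower and only HN1 was higher (median -0.68). MCM6, of the replicative helicase, had 19.6 and 17.5 CPM against 52.5 and 55.5 (-1.41, adjusted p = 0.00091). CENPF, a centromere protein gene, had 63.6 and 91.4 against 182 and 198 (-1.20, adjusted p = 0.00021). At an equal 2000 UMIs per barcode the G2/M list had a mean of 6.61 and 7.74 UMIs in intermediate barcodes, against 9.92 and 10.5 in deep cells.

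HIST1H4C, a replication-dependent H4 histone gene, fell from 1003 and 1209.5 CPM in deep cells to 215 and 256 (log2 -2.11, SE 0.066, adjusted p = 8.6e-07). Histone H4 is encoded by several nearly identical genes, so the assignment of these UMIs to 1 gene copy is uncertain. The chromatin proteins HMGA2 (174 and 255 against 763 and 799.8, -1.77, adjusted p = 0.00013) and H2AFZ (852 and 896 against 1340.4 and 1411, -0.54, adjusted p = 0.00021) were lower too. In the whole list of lamina and chromatin genes 8 were lower and 3 higher of 17, with LMNA, of the A-type lamins, among the 3. Over all genes 10.8% were lower and 6.59% higher. The median of this list was -0.20 and moved to 0.02 without the barcodes with a chromosome in excess.

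Targets of the interferon response were more often higher than lower. Of 27 tested U-ISGF3-induced genes 9 were higher and 1 lower (median 0.37). The list came from earlier work and was used by the study on these same samples, so its direction is not independent evidence, and over all genes 6.59% were higher and 10.8% lower. ISG15, a ubiquitin-like modifier, had 1521 and 1494 CPM in intermediate barcodes, against 702 and 703 in deep cells (log2 1.22, SE 0.054, adjusted p = 4.4e-06). OASL, related to the oligoadenylate synthetases, had 57.7 and 61.5 against 15.8 and 15.002 (2.07, SE 0.17, adjusted p = 6.6e-05), and IFIT1, which binds foreign RNA, had 103 and 105 against 45.1 and 43.5 (1.35, SE 0.12, adjusted p = 0.00014). In each of these 3 genes the intermediate sums of both libraries were more than those of deep cells. The share of all genes for which this held is not given here. Also called higher were BST2, DDX58, HERC5, IFI27, IFI44 and IFIT3.

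Among the components of the complex and the kinases above it, no call was in the higher direction. STAT2 had 6.67 and 15.8 against 15.007 and 14.5 and did not pass (-0.37, adjusted p = 0.52). IRF9 had 0 and 1 UMI in the intermediate barcodes, where 10.8 and 10.3 UMIs would stand at the level of the deep cells, a ratio of 0.0474 (exact Poisson 95% interval 0.00120 to 0.264, counting error only). JAK1, a kinase upstream of the complex, had 38.1 and 46.2 against 64.1 and 65.6 (-0.51, adjusted p = 0.043), a call lost under DESeq2 (adjusted p = 0.175) and in 8 other settings, leaving out either library among them. TYK2, its partner, did not pass (2.75 and 11.8 against 13.9 and 14.9, adjusted p = 0.18). Of the 10 JAK and STAT genes tested, 0 were higher and 2 lower, where 6.59% of all genes were higher and 10.8% lower. These counts are too small to set the list apart from all genes.

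Ribosomal protein genes were higher almost without exception. Of 84 ribosomal protein genes, 80 were higher and 0 lower (median 0.52), against 6.59% of all genes. RPS18 had 7789 and 7609 CPM against 5142 and 4851 (0.74, SE 0.035, adjusted p = 4.9e-06). RPS27L, a ribosomal paralog that is also a p53 target, had the smallest adjusted p of the list (1208 and 964 against 509.9 and 428, 1.33, SE 0.061, adjusted p = 4.6e-06). Ribosomal protein genes have many processed copies in the genome, so single members are less certain than the list. Of 24 translation factors 13 were higher and only NAP1L1, a histone chaperone kept in that list, was lower.

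Of 63 nuclear genes of the respiratory chain 51 were higher and 0 lower (median 0.48), such as COX6C (882 and 818 against 484 and 479, 0.94, adjusted p = 2.9e-05) and COX4I1 (1200.2 and 1076 against 669.9 and 695, 0.85, adjusted p = 8.1e-05). The 13 genes of the same chain on the mitochondrial genome had a median of -1.47, a value that the choice of barcodes used and that was not tested. Of 14 glycolysis genes 6 were higher and 0 lower, led by GAPDH (3136 and 3597 against 2217 and 2476, 0.64, adjusted p = 2.2e-05). Beside both lists, 6.59% of all genes were higher and 10.8% lower.

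Keratins and small cytoskeletal proteins were among the most certain differences. KRT18 had 4107 and 3816 CPM against 2016 and 1872 (log2 1.14, SE 0.042, adjusted p = 1.1e-06), and KRT19 had 3170.4 and 3012 against 1741 and 1677 (0.97, SE 0.045, adjusted p = 4.6e-06). The annotated loci of KRT18 and KRT8 overlap. Of the 16 epithelial genes tested 8 were higher, EPCAM and the tight junction genes CLDN4 and CLDN7 included, and 0 were lower. S100A6, a calcium-binding protein gene, had 11077 and 9157 against 5166 and 4566 (1.17, SE 0.041, adjusted p = 1.1e-06). In the list of actin, tubulin, S100 and annexin genes 17 of 29 were higher, and the tubulin genes TUBA1B and TUBB, which dividing cells use for the spindle, were the 2 called lower. Beside these lists, 6.59% of all genes were higher and 10.8% lower.

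Of 3 nuclear RNAs 2 were lower, NEAT1 and KCNQ1OT1, and splicing genes were more often lower than higher. For the counts in this paragraph, 10.8% of all genes were lower and 6.59% higher. NEAT1, the scaffold of paraspeckles, had 394 and 265 against 670.4 and 541 (-0.78, SE 0.085, adjusted p = 0.00039), but 19.9% and 26.2% of its intermediate UMIs came from 1 barcode in each library. MALAT1 had 5369 and 6903 against 8605 and 8024 and did not pass (-0.33, adjusted p = 0.32). The kinds of barcode differed widely in this RNA, which stood at 2650.0 and 2841 in the majority of intermediate barcodes and at 39750 and 65240 in those of low ribosomal share. Of 24 splicing genes 16 were lower and 1, DDX5, was higher. SF3B1, a core splicing factor, had 94.2 and 110.0 against 192 and 200.4 (-0.83, adjusted p = 0.00059). Of 21 genes of cholesterol synthesis and uptake 7 were lower and 1, TM7SF2, was higher. SQLE, a rate-limiting enzyme of that pathway, had 59.3 and 54.7 against 103 and 107 (-0.76, adjusted p = 0.0035).

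Of 27 immediate early and heat shock genes 8 were higher and 2, HSP90AB1 and HSPH1, were lower, against 6.59% and 10.8% of all genes. ATF3, a stress-induced transcription factor, had 130.3 and 169 against 50.2 and 54.3 (1.62, adjusted p = 3.3e-05). Of 35 genes of the endoplasmic reticulum and secretion 11 were higher and 2 lower, the latter a smaller share than the 10.8% of all genes. SSR4, of the translocon, had 413 and 369 against 243 and 232 (0.84, adjusted p = 0.00015). HSP90B1, the chaperone GRP94, and KDELR1, a retrieval receptor, were those called lower. None of the 5 tested markers of other cell types passed.

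**Figure D2:**
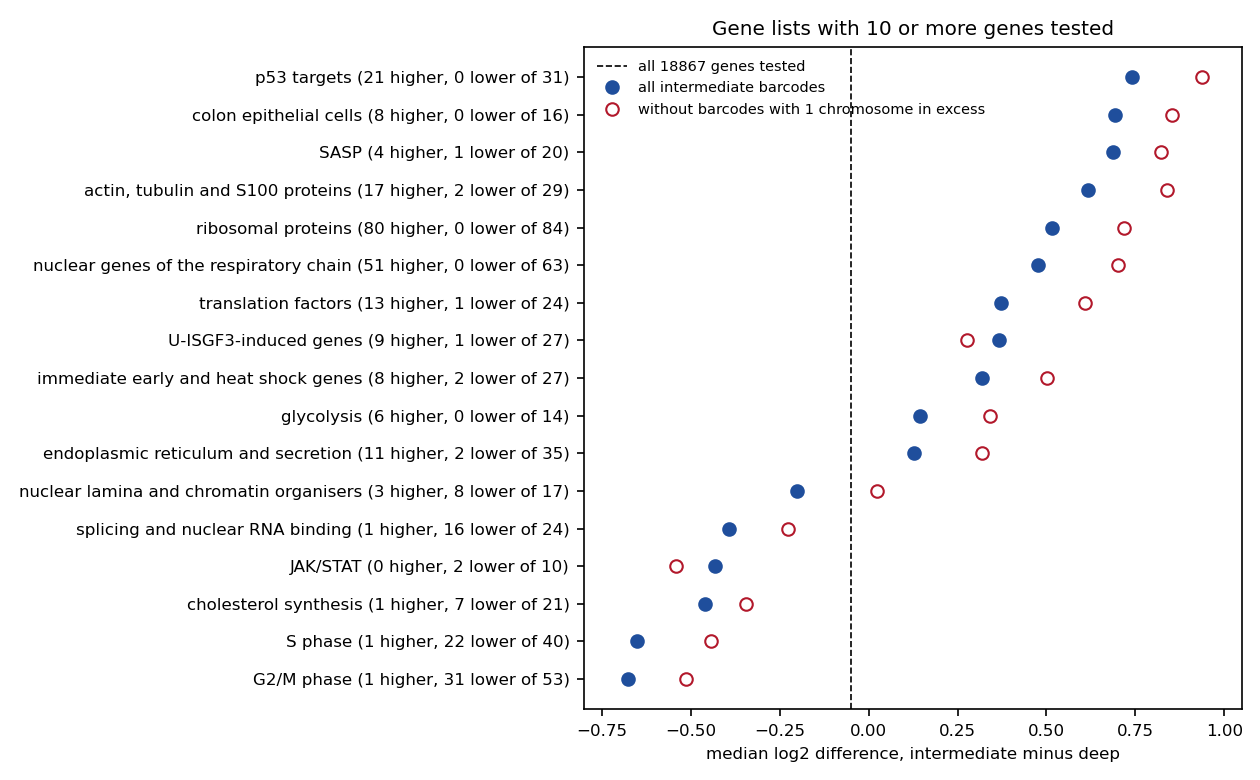
Median log2 difference between intermediate barcodes and deep cells over the tested genes of each list with at least 10 genes tested (x axis), with the calls of each list beside its name. Filled points are all intermediate barcodes, open points leave out the barcodes with at least 1 chromosome in excess, and the dashed line is the median of -0.05 over all 18867 genes tested. Among these lists the p53 targets lie highest at 0.74 and the G2/M genes lowest at -0.68.

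The 10 largest rises among genes of at least 50 CPM included genes of epithelial surfaces and filaments. KRTAP3-1 (chromosome 17, 39164773 to 39175576, hg19) is a keratin-associated protein gene and led them with 152 and 69.9 CPM against 43.2 and 20.3 (log2 1.92, SE 0.13, adjusted p = 2.7e-05). Its level differed between the libraries too, and the rule required a rise within each library. FXYD3, a regulator of the sodium pump (chromosome 19, 35606727 to 35615228), had 224 and 165 against 84.4 and 54.3 (1.62, adjusted p = 2.2e-05). S100A2, a calcium-binding protein gene, had 192 and 179 against 79.3 and 65.4 (1.48, adjusted p = 3.0e-05). ATF3, BTG2, TP53I3 and PMAIP1, given above, belonged to the 10 as well.

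MAML3 and HES1, also among the 10, each drew a large share of UMIs from 1 barcode in at least 1 library. MAML3, a Notch coactivator gene of 437 kb on chromosome 4 (140637907 to 141075338), had 162 and 119 against 46.0 and 37.0 (1.87, adjusted p = 2.2e-05), but 48.3% and 47.4% of its UMIs came from 1 barcode in each library. Without the barcodes with a chromosome in excess the difference was -0.20 (adjusted p = 0.36). HES1, a Notch target, had 83.6 and 149 against 43.9 and 42.25 (1.495, adjusted p = 0.0039), with 43.6% of its UMIs in DOX library 2 from 1 barcode. Without the barcodes in excess HES1 was still higher, by 1.33 (adjusted p = 2.1e-29). That p-value leans on a spread estimated across genes and does not measure how closely the 2 libraries agreed.

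The 10 largest falls were, apart from HIST1H4C, genes with long loci. LINC00669, a long noncoding RNA gene of 593 kb (chromosome 18, 36786881 to 37380286), had 12.6 and 10.7 CPM against 90.6 and 111 (log2 -2.96, SE 0.19, adjusted p = 2.2e-05). RAD51B, of homologous recombination (910 kb, chromosome 14, 68286496 to 69196935), had 45.5 and 33.8 against 151 and 176 (-1.91, adjusted p = 0.00027). PTPRG, a receptor phosphatase gene of 736 kb, had 39.2 and 58.1 against 193 and 192 (-1.89, adjusted p = 5.7e-05), and FRAS1, an extracellular matrix gene of 487 kb, had 24.3 and 40.0 against 142 and 133 (-2.02, adjusted p = 0.00041). SIPA1L3, SPIDR, PLCB1, FRMD5 and RP11-608O21.1 completed the 10 with differences of -1.83 to -1.90 and loci of 301 to 891 kb. Both libraries showed the fall in all 10, which the rule for choosing them required.

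**Figure D3:**
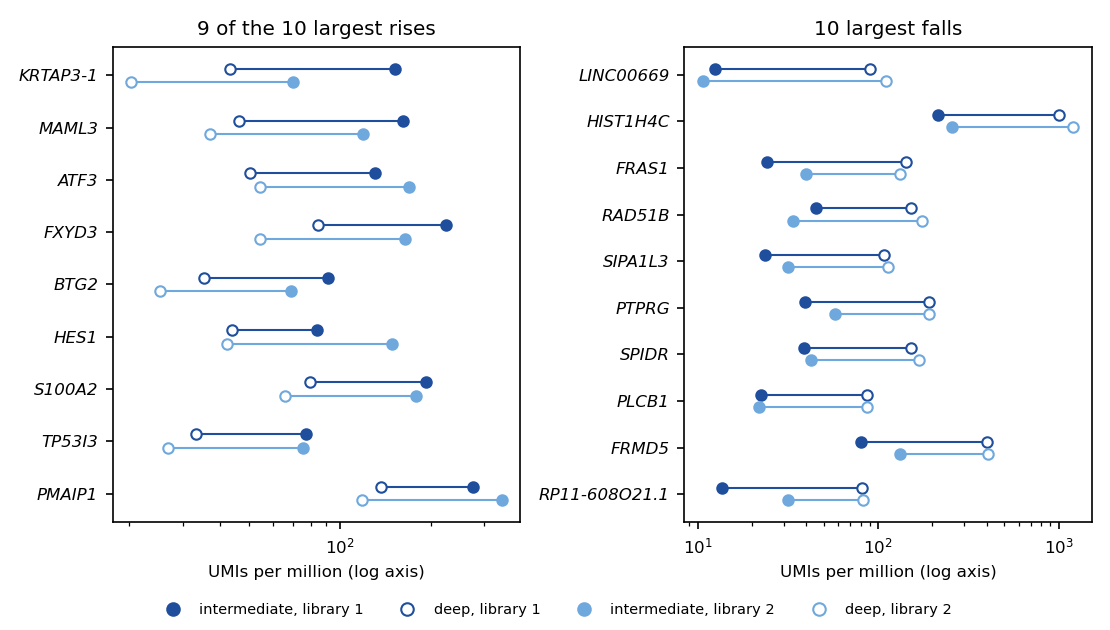
CPM (log axis) of 9 of the 10 largest rises and the 10 largest falls by rule, filled for intermediate barcodes and open for deep cells, dark for DOX library 1 and light for DOX library 2, with a line joining the pair of each library. All pairs of a gene point the same way because the rule required it. MAML3 is the gene whose rise was not seen without the barcodes with a chromosome in excess.

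Locus length, the span of a gene from the first to the last annotated base with introns, was not used for the choice and separated rises from falls across the table. Of genes with a locus under 10 kb, 10.7% were higher and 1.41% lower (median log2 0.19). At 30 to <100 kb 4.77% were higher and 13.3% lower (median -0.17), and at 100 to <300 kb 3.78% were higher and 28.2% lower (median -0.39). Genes of 300 kb or more were 5.24% higher and 22.3% lower, with a median of only -0.01. Without the barcodes with a chromosome in excess the median of these longest genes was -0.73, with 2.22% higher and 41.0% lower. A length was at hand for 97.2% of the genes tested. Genes of 1 length class also share base composition, function and reads from introns, and which of these moved with depth was not tested.

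Genes of 100 kb or more supplied 9.74% and 9.77% of all UMIs in the intermediate barcodes, against 14.6% and 14.8% in deep DOX cells. The kinds of barcode differed widely. The majority drew 6.36% and 6.88% from such genes, those with a chromosome in excess 35.3% and 29.99%, and those of low ribosomal share 28.9% and 30.2%. Untreated intermediate barcodes drew 16.1% and 18.0%, above the 13.4% and 14.4% of deep untreated cells, so the order of intermediate and deep was reversed there.

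Single chromosomes supplied far more than their usual share of UMIs in a minority of the intermediate DOX barcodes. For each barcode the share of every chromosome was set against its mean share in the deep cells of the same library, without the mitochondrial genome and the 3 nuclear RNAs. A chromosome exceeded that mean by 10 or more percentage points in 47 of 892 barcodes in DOX library 1 (5.27%, exact binomial 95% interval 3.90 to 6.95) and in 28 of 560 in DOX library 2 (5.00%, 3.35 to 7.15). None of the untreated intermediate barcodes did so, 0 of 205 and 0 of 72, with upper limits of 1.78% and 4.99% by the same exact interval. The limit of untreated library 2 thus reached nearly the share seen in DOX library 2. At 20 points the DOX shares were 3.81% and 3.93%, and at 30 points 2.80% and 1.79%. These intervals and limits cover counting error only, and DOX and untreated barcodes had been admitted by different settings. No test was run because the measure was chosen after seeing the data and 2 libraries against 2 cannot reach an exact permutation p of 0.05.

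In the most extreme barcode of DOX library 1, 84.5% of UMIs came from the X chromosome, which supplied 2.60% in deep cells. In DOX library 2 it was 85.7% from chromosome 3, which supplied 5.53%. Over the 75 barcodes the largest share had a median of 33.0%, or 7.07 times the mean of deep cells, and 21 chromosomes were represented, chromosome 4 most often (6 and 3 barcodes). In 39 barcodes only 1 chromosome passed the 10 points, in 30 there were 2 and in 6 there were 3. Ribosomal protein genes were kept in these shares. In DOX library 2 a barcode with 61.1% ribosomal UMIs passed on chromosome 19 at 10.1 points, with RPS19 at 16.1% of that chromosome's UMIs. By the medians that follow, the excess was spread over many genes. A median of 208 genes of the chromosome were seen, and the gene with most UMIs made up a median of 4.80% of its UMIs. The stretch that held most of the chromosome's UMIs, without the tails at both ends, had a median of 49.1% of its length in deep cells. An exception was a barcode with 40 genes of chromosome 4 seen, where this stretch was 2.63% of its length in deep cells. In that barcode RBPJ, the DNA-binding partner of Notch, held 27.5% of the chromosome's UMIs.

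Barcodes with a chromosome in excess occurred at other depths as well. Among deep DOX cells there were 15 of 1259 (1.19%) and 10 of 962 (1.04%), of which 8 and 9 lay within 2 points of the limit. At 10000 to <20000 UMIs there were 3 of 47 (6.38%) and 4 of 46 (8.70%), and below 2000 UMIs 28 of 4338 (0.645%) and 25 of 4243 (0.589%). Untreated barcodes below 2000 UMIs held 2 of 140 (1.43%) and 0 of 71, and deep untreated cells 0 of 3320 and 1 of 1924. Within the intermediate range they made up 32 of 826 and 17 of 486 barcodes under 5000 UMIs, but 15 of 66 (22.7%) and 11 of 74 (14.9%) above. In these barcodes CDKN1A stood at 117 and 98.3 CPM and GDF15 at 216 and 156, below the 417 and 356 and the 582 and 541 of the majority. ISG15 stood at 591 and 418, against 1650.0 and 1641.

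**Figure D4:**
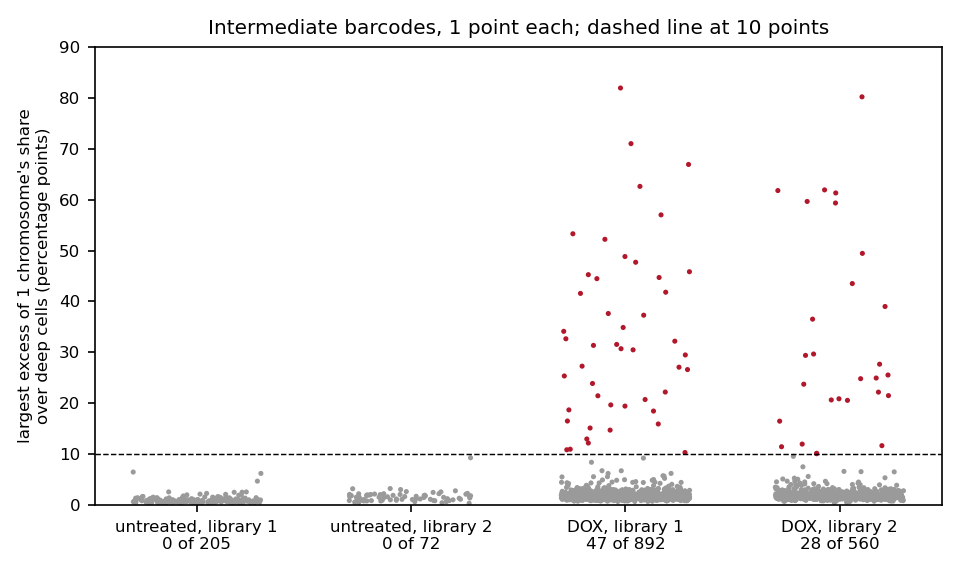
Largest excess of a chromosome's share of UMIs over its mean in deep cells of the same library (percentage points) for each intermediate barcode, 1 point a barcode, spread sideways at random within each of the 4 libraries. The dashed line marks 10 points, above which lie 47 of 892 and 28 of 560 DOX barcodes (red) and 0 of 205 and 0 of 72 untreated barcodes.

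These few barcodes weighed on the comparison with deep cells. With such barcodes left out of both groups, 2497 genes were higher (13.6%) and 3575 lower (19.5%). Of the 1244 genes called higher at first, 1003 were again called higher, 87 changed sign, 9 of these with a call in the other direction, and 39 had too few counts to test. Of the 2043 called lower, 1969 were again called lower and 1 changed sign. In 239 of the 1244 and 164 of the 2043, a single barcode held at least 20% of the gene's intermediate UMIs in both libraries. Against these larger shares over all genes, the p53 list had 23 higher of 31, the secreted factors 11 of 20, the ribosomal genes 82 of 84 and the nuclear respiratory chain 60 of 63. The S phase list had 22 lower of 40 and the G2/M list 33 of 53, whereas the splicing genes went from 16 lower to 10 of 24. The GDF15 difference was 1.35, CDKN1A 1.03 and MKI67 -1.22.

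Across depth the shares did not pass evenly from shallow to deep. Ribosomal protein genes made up 31.0% and 32.0% of UMIs below 2000 UMIs, 29.8% and 29.4% at 2000 to <5000, 22.5% and 24.4% at 5000 to <10000, 19.3% and 17.6% at 10000 to <20000, and 21.7% and 21.4% in deep cells. Genes of 100 kb or more made up 6.04% and 6.09%, 7.80% and 8.33%, 18.0% and 13.2%, 19.0% and 21.3%, and 14.6% and 14.8% in the same order. U-ISGF3-induced genes had their highest share, 0.254% in both libraries, below 2000 UMIs and their lowest, 0.138% and 0.137%, in deep cells. In ribosomal share and in long genes the intermediate barcodes of 5000 to <10000 UMIs lay between those of fewer UMIs and the range above. HMGA2 passed from 131 and 173 at 2000 to <5000 UMIs to 357 and 451 at 5000 to <10000, and ISG15 from 1601 and 1552 to 1178 and 1355.

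**Figure D5:**
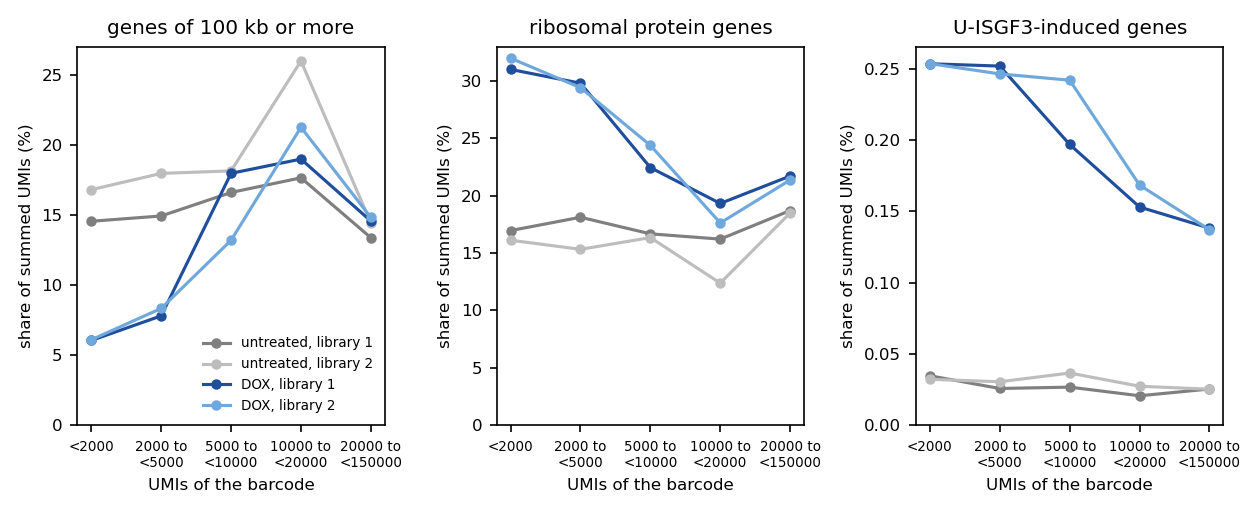
Share of summed UMIs (%) from genes of 100 kb or more, ribosomal protein genes and U-ISGF3-induced genes in 5 ranges of barcode depth, 1 line a library (blue for DOX, grey for untreated). In both DOX libraries the ribosomal share falls from 31.0% and 32.0% to 21.7% and 21.4%, while the untreated lines show no such fall.

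Tested against each other, the intermediate barcodes of 2000 to <5000 and of 5000 to <10000 UMIs had 0 of 8776 genes past the threshold in edgeR's test (0.0%), with 1483 at an unadjusted p under 0.05. DESeq2 called 64 genes, all lower in the barcodes of fewer UMIs. Without the barcodes with a chromosome in excess 223 genes were higher and 264 lower in the barcodes of fewer UMIs, of 8064 tested. Among them S100A6 (log2 0.41, adjusted p = 0.0027) and KRT18 (0.71, adjusted p = 0.00065) were higher, and HMGA2 (-1.18, adjusted p = 0.0025) and PTPRG (-1.28, adjusted p = 0.011) were lower. Of 82 ribosomal protein genes 71 were then higher and 0 lower, against 2.77% and 3.27% of all genes, and of the tested genes with loci of 300 kb or more 30.6% were lower and 0.0% higher.

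Against the 4338 and 4243 shallow DOX barcodes, which had medians of 1416 and 1215 UMIs, 1577 of 12182 genes were higher in the intermediate barcodes (12.9%) and 1179 lower (9.68%). Without TMM factors the median moved from 0.05 to 0.27 and the split was 2387 higher and 312 lower, and DESeq2 called 271 higher and 399 lower. Long genes held a larger share of rises here, with 55.0% of those of 300 kb or more higher against 1.43% of those under 10 kb, and in 604 of the 1577 a single barcode held at least 20% of the UMIs in both libraries. MAML3 (162 and 119 against 12.8 and 13.4 in shallow barcodes, log2 3.20) and LRBA, a vesicle trafficking gene of 751 kb (263 and 305 against 48.9 and 50.9, 2.29, adjusted p = 8.3e-13), led the rises. Without the barcodes with a chromosome in excess, LRBA was still higher, by 0.78. ARID1B, TRAPPC9 and an entry of the noncoding RNA 7SK, which has many copies and is uncertain, were the other 3 by rule.

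The genes lower in intermediate than in shallow barcodes included some that were higher in intermediate than in deep ones. By rule the leading falls were KRTAP3-1 (152 and 69.9 against 225 and 141, -0.97, adjusted p = 3.5e-05), FXYD3 (-0.74, adjusted p = 2.6e-06), PPIC, KLK8 and MGST3 (-0.68, adjusted p = 1.7e-06). The 2 comparisons share the intermediate sums. Of 83 ribosomal protein genes 0 were higher and 81 lower (median -0.39), and of 63 nuclear respiratory genes 61 were lower, against 9.68% of all genes. Without the barcodes with a chromosome in excess 27 of the ribosomal and 54 of the respiratory genes were lower, against 6.39% of all genes. The summed ribosomal share needed no scaling factor and was 28.4% and 27.9% in intermediate against 31.0% and 32.0% in shallow barcodes. CDKN1A (409 and 373 in shallow barcodes) and GDF15 (601 and 557) were lower in the intermediate barcodes by 0.32 and 0.35 on the log2 scale (adjusted p = 0.0019 and 0.00050). The TMM factors, 1.07 and 1.09 in intermediate and 0.926 and 0.925 in shallow barcodes, made both differences larger than the CPM alone show. Of the study's 9 arrest and proliferation markers 3 were lower, CDKN1A, GDF15 and PCNA, and without the barcodes with a chromosome in excess 1 was. MKI67 had 42.3 and 48.3 in shallow barcodes and did not pass (0.33, adjusted p = 0.12).

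The difference between intermediate and deep barcodes was itself different without DOX. In a fit over all 4 libraries, the interaction of depth and treatment passed in 1257 of 19356 genes with a higher depth difference under DOX (6.49%) and in 1294 with a lower one (6.69%). Without TMM factors 568 were higher and 2687 lower, with the median at -0.31 in place of 0.08, and with DESeq2 1138 and 781. In the same fit, untreated intermediate barcodes differed from untreated deep cells in 82 genes higher and 589 lower. The untreated groups rest on 205 and 72 intermediate barcodes, so genes with few UMIs there are imprecise.

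For ribosomal protein genes the interaction was higher in 82 of 84 and lower in 0, beside 6.49% and 6.69% of all genes. RPS18, given for DOX above, had 3720 and 3410.2 CPM in untreated intermediate barcodes against 3984 and 3706.5 in untreated deep cells (interaction 1.13, SE 0.10, adjusted p = 4.5e-25). The interaction was higher in 55 of 63 nuclear respiratory genes, 23 of 29 cytoskeletal and S100 genes and 13 of 31 p53 targets, with 0 lower in each. KRT18 had 846 and 1088 against 1198 and 1068 (interaction 1.68, adjusted p = 1.2e-43). GDF15 had 26.9 and 35.7 against 42.0 and 33.5 (1.83, adjusted p = 1.7e-13), while for CDKN1A, at 34.1 and 46.4 against 26.7 and 28.4, the interaction did not pass (0.59, adjusted p = 0.074).

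Division genes and long genes more often had a lower interaction than a higher one. MKI67 had 276 and 260.4 CPM in untreated intermediate barcodes against 251 and 288 in untreated deep cells, overlapping values, and an interaction of -1.14 (SE 0.18, adjusted p = 3.8e-08). Among 40 S phase genes the interaction was lower in 11 and higher in 1, and among 53 G2/M genes lower in 12 and higher in 4, where 6.69% of all genes were lower and 6.49% higher. HMGA2 was higher rather than lower in untreated intermediate barcodes, at 1256 and 1359 against 914 and 982 (interaction -1.96, adjusted p = 1.7e-44), and so was PTPRG, at 279 and 253 against 169.7 and 190.4 (-2.21, adjusted p = 2.4e-26). RAD51B had 200.2 and 367 against 149 and 159.8 (-2.40, adjusted p = 1.2e-28). Of genes with loci of 300 kb or more 21.1% had a lower interaction and 0.738% a higher one.

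At an equal depth of 2000 UMIs, drawn at random without replacement from each barcode, intermediate DOX barcodes showed fewer genes than deep cells. The median was 965.5 and 974.5 genes, against 1175 and 1183.5, a ratio of 0.822 and 0.823. In untreated libraries it was 1249 and 1304 against 1209 and 1225, a ratio of 1.03 and 1.06. Both DOX libraries were below 1 and both untreated libraries above, a description over 2 libraries each.

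More of the thinned intermediate barcodes held a UMI of the p53 and interferon-stimulated genes. CDKN1A was seen in 50.8% and 43.0% of them, against 24.9% and 19.4% of deep cells (59.5% and 53.2% against 89.8% and 87.3% before thinning). GDF15 was seen in 63.6% and 57.5% against 29.5% and 23.3%. ISG15 was seen in 91.8% and 90.7% against 63.3% and 64.7%, and IFI27 in 37.8% and 35.7% against 17.0% and 16.1%. MKI67 was seen in 8.74% and 10.4% against 24.3% and 26.0%, and LMNB1 in 3.59% and 4.64% against 11.4% and 14.7%. ALB and COL3A1, which this line should lack, were seen in 0.0%, and COL1A1 in 0.785% and 0.714% of intermediate barcodes. The part of free RNA in these shares was not tested.

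The thinned barcodes also differed in how evenly the lists were spread. As a measure that allows for the different means, the variance of a list's sum over barcodes beyond its mean was divided by the squared mean, a choice made after seeing the data. For G2/M genes it was 0.199 and 0.296 in intermediate barcodes, against 0.439 and 0.385 in deep cells, and for ribosomal protein genes 0.0509 and 0.0698 against 0.119 and 0.112. Both lists varied less among the intermediate barcodes of each library. For U-ISGF3-induced genes it was 0.958 and 1.12 against 1.054 and 0.520, so the libraries differed in direction. These are values over 2 libraries, with no test.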

How the data were processed

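Single-cell RNA from 2 untreated and 2 DOX HCT-116 libraries was captured in droplets with 10x Genomics chemistry. The deposited matrices hold UMI counts per gene and barcode, produced by the authors with Cell Ranger and an hg19 reference. The submitters' processing notes name version 7.0.0 and the file headers 7.2.0, along with CASAVA 1.8.2, SAMtools 1.2 and bedtools 2.25 in the notes. Whether intron reads were counted is not given in the sources used here, and long genes depend on it. No doublet caller was run.

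Barcodes were grouped by UMIs (2000, 5000, 10000, 20000 and 150000), genes (12000) and mitochondrial share (8%), and counts were summed per library and group. Barcodes are not replicates, so n was 2 libraries. The DOX libraries held 8000 barcodes each, the untreated libraries 4701 and 2528. edgeR 4.0.16 in R 4.3.3 (TMM, default filter, quasi-likelihood test, library as a block, Benjamini-Hochberg, 0.05) was the test, tested on simulated data. The library is a true pair, since both groups of a library come from the same droplets' run. Adjusted p-values in the text are from edgeR's quasi-likelihood test unless DESeq2 1.42.0 is named. Within DOX they rest on the spread between these 2 libraries only, estimated in part across genes. A very small value therefore does not measure how closely the libraries agreed for a gene. The interaction used all 4 libraries, and fits without 1 DOX library took their spread from the untreated ones. Exact permutation over 2 pairs cannot pass.

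Named genes were the study's markers, the 10 largest rises and falls with at least 50 CPM, an adjusted p under 0.05 and the same direction in both libraries, the 3 genes of smallest adjusted p in each list, and the 5 largest each way in the other comparisons. Genes named beyond these were chosen after their values were seen. Members and lists were chosen with earlier results of these data known. Positions were taken from a GENCODE annotation on hg19, matched for 31182 of 32738 gene IDs. Sums, thinning (seed 1) and figures used pandas 2.3.3, numpy 2.4.6, matplotlib 3.10.9 and scipy 1.17.1 under Python 3.11.15. Alternatives were TMM against library totals, DESeq2, no filter, no block, thinning, other windows and limits, and each library left out. Those on chromosomes in excess, and with them on low ribosomal share, were added after seeing the data. A few items are not reported here.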

Additional observations from a re-analysis of the deposited data

Results flagged for a closer look

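The interaction of depth and treatment was tested directly, and the calls were 1257 genes with a higher depth difference (intermediate minus deep) under DOX than untreated and 1294 with a lower one, by edgeR's quasi-likelihood test. The 5 largest differences upward were KRT7, a keratin (2.63 on the log2 scale), KRTAP2-3 (2.18), IGFBP6 (2.08), SNCG, encoding gamma-synuclein (2.04), and FBXO2, a ubiquitin ligase subunit (1.92). Under DOX, KRT7 had 167 and 146 CPM in intermediate barcodes against 73.9 and 64.2 in deep cells, and in untreated libraries 10.8 and 3.57 against 18.5 and 20.8. The untreated values rest on 12 and 1 UMIs of KRT7, 9 and 1 of KRTAP2-3 and 20 and 4 of SNCG. KRTAP2-3 has nearly identical neighbours in its family, so its counts are uncertain.

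The 5 largest downward were LINC00669 (-3.09), DENND5B (-2.74), ARHGAP11B (-2.70), RP11-366L20.2 (-2.58) and RAD51B (-2.40). LINC00669 had 12.6 and 10.7 against 90.6 and 111 under DOX, and 136 and 257 against 129 and 143 untreated. ARHGAP11B shares most of its sequence with ARHGAP11A, and the annotated span of RP11-366L20.2 lies within that of HMGA2, so the assignment of counts to both is uncertain.

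Barcodes above the mitochondrial limit were in no comparison. Among those of 2000 to <10000 UMIs a chromosome was in excess in 7.48% (8 of 107) in DOX library 1 and 11.6% (16 of 138) in DOX library 2. In untreated libraries it was 0 of 77 and 0 of 32, with upper limits of 4.68% and 10.9% (exact binomial 95% interval). Counting error only is covered.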

How the results depend on the processing

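The count of 3287 genes differing between intermediate and deep barcodes moved by over 1.5 times in 6 settings. It was 5304 at 2000 to <5000 UMIs, 14 at 5000 to <10000 UMIs (732 without barcodes with a chromosome in excess), 6072 without those barcodes and 6902 also without those of low ribosomal share, and 1970 to 2617 with 1 library left out, where 1970 was without DOX replicate 1 and the lone library is assumed to vary as the untreated ones. It was 3554 without TMM, 2351 with DESeq2, 4343 with no filter, 2606 with deep cells thinned and 4002 with both thinned. With deep cells thinned 2257 of the 3287 calls were kept and 0 turned. Both depth groups of a library are paired. Without the replicate block 4465 genes were called (1846 higher, 2619 lower), 1962 against shallow barcodes and 2477 for the interaction, and KRTAP3-1, LMNB1 and NEAT1 lost their calls.

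Between lower and upper intermediate barcodes, 0 calls became 64 with DESeq2, 375 with no filter and 487 without barcodes in excess. Against shallow barcodes 2756 became 670 with DESeq2 and 1627 without barcodes in excess. The interaction's 2551 became 4090 without barcodes in excess and 1486 to 2318 with 1 library left out, lowest without DOX replicate 1 and 1697 without DOX replicate 2. At 1000 UMIs the ratio of genes per barcode was 0.862 and 0.858.

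MAML3 changed sign to -0.20 without barcodes in excess and -0.91 also without those of low ribosomal share. In the small group of 5000 to <10000 UMIs LMNB1 (0.16), NEAT1 (0.12), PCNA (-0.15), SEC61G (-0.11), DDOST (-0.029) and SSR4 (-0.00603) changed sign, and so did JAK1 (0.0068) once barcodes in excess were left out. The cause was not tested. Without DOX replicate 1, PCNA, BIRC5, LMNB1, HSH2D, IRF9 and 7 others lost their calls, and without DOX replicate 2, PCNA, ANAPC1 and 6 others. The group of 5000 to <10000 UMIs rests on 66 and 74 barcodes and the untreated intermediate group on 205 and 72, which limits the counts behind both.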
